A study of Mus musculus with 4 samples.

Results

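Transcripts of 10 genes of the AP-1 and immediate early group were followed across germinal center (GC) B-cell subtypes, unannotated B and T cells, and 4 genotypes. The members were taken as a named list (Fos, Fosb, Jun, Junb, Jund, Fosl2, Atf3, Egr1, Ier2 and Dusp1), and all 10 were among the 31053 genes of the deposited matrices. Female mice of a C57BL/6J background, 8 weeks old, had been immunized with sheep red blood cells (SRBC) 10 days earlier, and their splenic B220+IgD- cells were sorted and sequenced as single cells in droplets. All mice carried Cγ1-cre, which is driven from the immunoglobulin γ1 locus and becomes active in GC B cells, so that T cells and most other B cells were not its targets. WT mice had no floxed allele, C mice were Crebbp fl/+, K mice were Kmt2d fl/+, and CK mice carried both floxed alleles. Each genotype was 1 library from 1 mouse, so the differences below have no replicate check, no test between genotypes was run, and every 95% interval covers counting error only. Where 4 values follow each other, they belong to the WT, C, K and CK libraries.

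AP-1 is a dimer of basic leucine zipper proteins, in which a Jun protein pairs with another Jun protein, with a Fos protein or with an ATF protein. Many of its genes are immediate early genes, which are transcribed within minutes of a stimulus without new protein synthesis, through signal-regulated kinases that act on factors already bound to their promoters. In GC B cells such stimuli include antigen receptor and CD40 signals received in the light zone, where centrocytes (CC) reside, while centroblasts (CB) divide in the dark zone. The same genes are also known to respond to tissue dissociation and cell sorting.

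The members fall into 4 roles. Fos, Fosb and Fosl2 encode Fos-type partners, and Jun, Junb and Jund encode Jun-type partners, of which JunD is known as the most steadily transcribed. Atf3 encodes a stress-induced ATF partner. Egr1 encodes a zinc finger transcription factor and Ier2 a nuclear protein, both induced early, and Dusp1 encodes a phosphatase that inactivates mitogen-activated protein kinases. In the GENCODE vM21 annotation of GRCm38, Fos lies on chromosome 12 from 85473890 to 85477273 (+ strand), Fosb on chromosome 7 from 19302696 to 19310051 (-), Fosl2 on chromosome 5 from 32135801 to 32157842 (+) and Jun on chromosome 4 from 95049034 to 95052222 (-). Junb (84974484 to 84978718, -), Ier2 (84661331 to 84662852, -) and Jund (70698949 to 70700616, +) lie on chromosome 8, with 311632 bases between Ier2 and Junb. Atf3 lies on chromosome 1 from 191170296 to 191218039 (-) and Dusp1 on chromosome 17 from 26505590 to 26562128 (-).

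Promoter windows of 250 bases before to 50 bases after the RefSeq start (GRCm38.p6) were used for 8 of 10 members, and both strands were searched for 3 sites through which immediate early genes are known to be controlled. The RefSeq start lay 1210 bases from the GENCODE 5′ end of Jund, 671 bases from that of Fosl2, 34706 bases from that of Atf3 and 53656 bases from that of Dusp1, and at most 30 bases from those of Fos, Fosb, Jun and Junb. The windows of Jund, Fosl2, Atf3 and Dusp1 therefore do not hold the 5′ end that GENCODE gives for the gene. The serum response element (CArG box) was found in 1.63% of all 32851 windows and in none of the 8 windows of members. Sites farther than 250 bases before the start, and the promoters of Egr1 and Ier2, were not searched, so absence from a window does not mean absence from the gene. The cyclic AMP response element TGACGTCA was found in 1.79% of all windows and, among the members, in that of Dusp1. The AP-1 site TGANTCA was found in 7.81% of all windows and in no member's window. A shorter form, TGACG, which is contained in TGACGTCA, was searched after these results were seen. It was found in 20.8% of all windows and in those of Fos, Fosb, Junb, Atf3 and Dusp1. The windows of Junb, Dusp1 and Fos are shown because Junb and Dusp1 had opposite courses between CB and CC and Fos was near 0, with TGACG or TGACGTCA, in either orientation, in capitals.
Junb, chr8:84978699-84978998, - strand: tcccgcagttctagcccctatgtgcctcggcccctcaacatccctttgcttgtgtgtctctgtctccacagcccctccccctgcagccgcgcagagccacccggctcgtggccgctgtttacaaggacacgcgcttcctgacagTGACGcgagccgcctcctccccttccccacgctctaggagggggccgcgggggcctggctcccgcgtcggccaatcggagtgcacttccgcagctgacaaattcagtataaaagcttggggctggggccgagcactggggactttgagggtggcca
Dusp1, chr17:26508423-26508722, - strand: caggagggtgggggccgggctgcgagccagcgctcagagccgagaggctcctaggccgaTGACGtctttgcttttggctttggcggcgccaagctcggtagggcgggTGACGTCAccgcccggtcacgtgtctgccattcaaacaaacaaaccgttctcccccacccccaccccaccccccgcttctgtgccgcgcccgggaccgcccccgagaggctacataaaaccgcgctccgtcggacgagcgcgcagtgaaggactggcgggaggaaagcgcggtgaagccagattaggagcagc
Fos, chr12:85473640-85473939, + strand: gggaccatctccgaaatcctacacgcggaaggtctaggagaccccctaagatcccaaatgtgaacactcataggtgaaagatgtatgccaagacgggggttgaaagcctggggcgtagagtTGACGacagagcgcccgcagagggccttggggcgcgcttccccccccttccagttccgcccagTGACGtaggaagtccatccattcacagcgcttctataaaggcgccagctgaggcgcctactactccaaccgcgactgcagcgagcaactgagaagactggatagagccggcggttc
The site in Junb starts 106 bases before the start, those in Fos 129 and 66 bases before it, and the full element in Dusp1 143 bases before its RefSeq start. These are matches of letters, and binding at them was not measured.

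The 4 libraries held 39009 barcodes and between 33270825 and 39803865 UMIs (unique molecular identifiers, each standing for 1 captured transcript). The members took between 0.0714% and 0.101% of all UMIs. The deposited cell table named 9804 GC B cells as early CB, CB, CB to CC transition cells, CC, recycling or prememory cells, all below 8% mitochondrial UMIs. Only 2 of them had 2500 genes or more in the matrices. Unannotated GC B-like cells above that limit were named from their nearest cells below it. By these names, 459 of 642 CB lay above it in WT and 391 of 812 in C. In K and CK these were 503 of 1148 and 448 of 1461 CB. Of CC, 28 of 410, 10 of 525, 14 of 625 and 9 of 945 did. Comparisons with CB therefore rest on its cells with fewer genes, and the largest part was left out in WT. The share of barcodes at or above 8% was 28.1% in WT and between 15.1% and 17.1% in the other libraries. Unannotated cells were named from clusters, and 143 barcodes occurred in more than 1 library. The sum of 9 T-cell markers was 8880 to 9612 CPM (UMIs of a gene per 1000000 UMIs of the population) in T-like cells and 46.0 to 114 CPM in unannotated non-GC B-like cells, although the sort was on B220. Prememory cells stood apart from the other annotated cells. Their sum of 7 GC B markers was 127 to 226 CPM, near the 139 to 184 CPM of non-GC B-like cells and below the 1901 to 2028 CPM of all annotated cells, and 550 of 578 prememory cells lay in clusters of non-GC B-like cells. The K library also stood apart, because 22.6% to 23.7% of genes were 1.5-fold or more lower in K than in WT in the 4 populations compared, and the median log2 ratio of all genes over WT was between -0.14 and -0.19 there.

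Jund, for which 93279 UMIs were counted over all barcodes, had the most data of the members and, among the annotated subtypes and the non-GC B-like and T-like cells, was lowest on average in CB. Its level was 448, 480.5, 318 and 379 CPM in CB, 825.5, 946, 597 and 689.8 CPM in transition cells, and 825.5, 908, 636 and 780.1 CPM in CC. Prememory cells held 1064, 1147, 1000.2 and 1148 CPM, and non-GC B-like cells 902.5, 1094, 812 and 1083 CPM. In each library CB was lower than transition cells, CC, prememory, non-GC B-like and T-like cells (630.1, 711, 553.5 and 651 CPM), and the K library was the lowest of the 4 in all of these populations. By mean level the order was prememory, non-GC B-like, CC, transition, T-like, early CB (616, 614, 432 and 558 CPM) and CB, and the ranges of each pair of neighbours over the 4 libraries overlapped.

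Junb (15434 UMIs) differed from Jund in that it was high in CC and not in transition cells. Its level was 145, 107, 115 and 70.5 CPM in early CB, 93.5, 57.2, 69.1 and 54.3 CPM in CB, and 113, 95.6, 90.8 and 78.6 CPM in transition cells. It was 187, 206, 223 and 202 CPM in CC and 170, 176, 216 and 199 CPM in prememory cells. The ranges of CC and of CB, or of CC and of transition cells, did not overlap, whereas those of CC and prememory cells did. Non-GC B-like cells, at 119.9, 132, 143 and 128.5 CPM, and T-like cells, at 144, 128, 161 and 135 CPM, lay between CB and CC and overlapped with each other.

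Egr1 (2987 UMIs) and Ier2 (8100 UMIs) were both low in CB and transition cells and higher in CC, but they parted in non-GC B-like and T-like cells. Egr1 was at 14.5, 23.1, 7.96 and 9.55 CPM in CB, 5.30, 7.97, 10.0 and 11.2 CPM in transition cells, and 45.9, 51.5, 43.5 and 48.7 CPM in CC. It was at 45.4, 71.5, 43.9 and 86.3 CPM in prememory, 32.1, 34.1, 31.5 and 37.0 CPM in non-GC B-like, and 21.3, 27.0, 23.2 and 24.7 CPM in T-like cells. CC therefore exceeded non-GC B-like cells, and those exceeded T-like cells, in all 4 libraries without overlap. The order of non-GC B-like and T-like cells was not stable. Their mean log2 ratio of Egr1 (T-like over non-GC B-like) ran from -0.51 to 0.31 under alternative settings. Ier2 was at 9.35, 11.1, 11.1 and 12.5 CPM in CB, 11.8, 19.5, 12.2 and 14.4 CPM in transition cells, and 42.6, 56.3, 51.1 and 52.4 CPM in CC. It was at 131, 141, 112 and 180.2 CPM in prememory, 91.8, 108, 124 and 99.3 CPM in non-GC B-like, and 137, 140.3, 128.5 and 151 CPM in T-like cells. Ier2 was thus lower in CC than in prememory, non-GC B-like or T-like cells, without overlap, and the ranges of prememory and T-like cells overlapped. Early CB, with 24 to 42 CPM of Ier2 on 10 to 54 UMIs, lay above CB in each library.

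**Figure D1:**
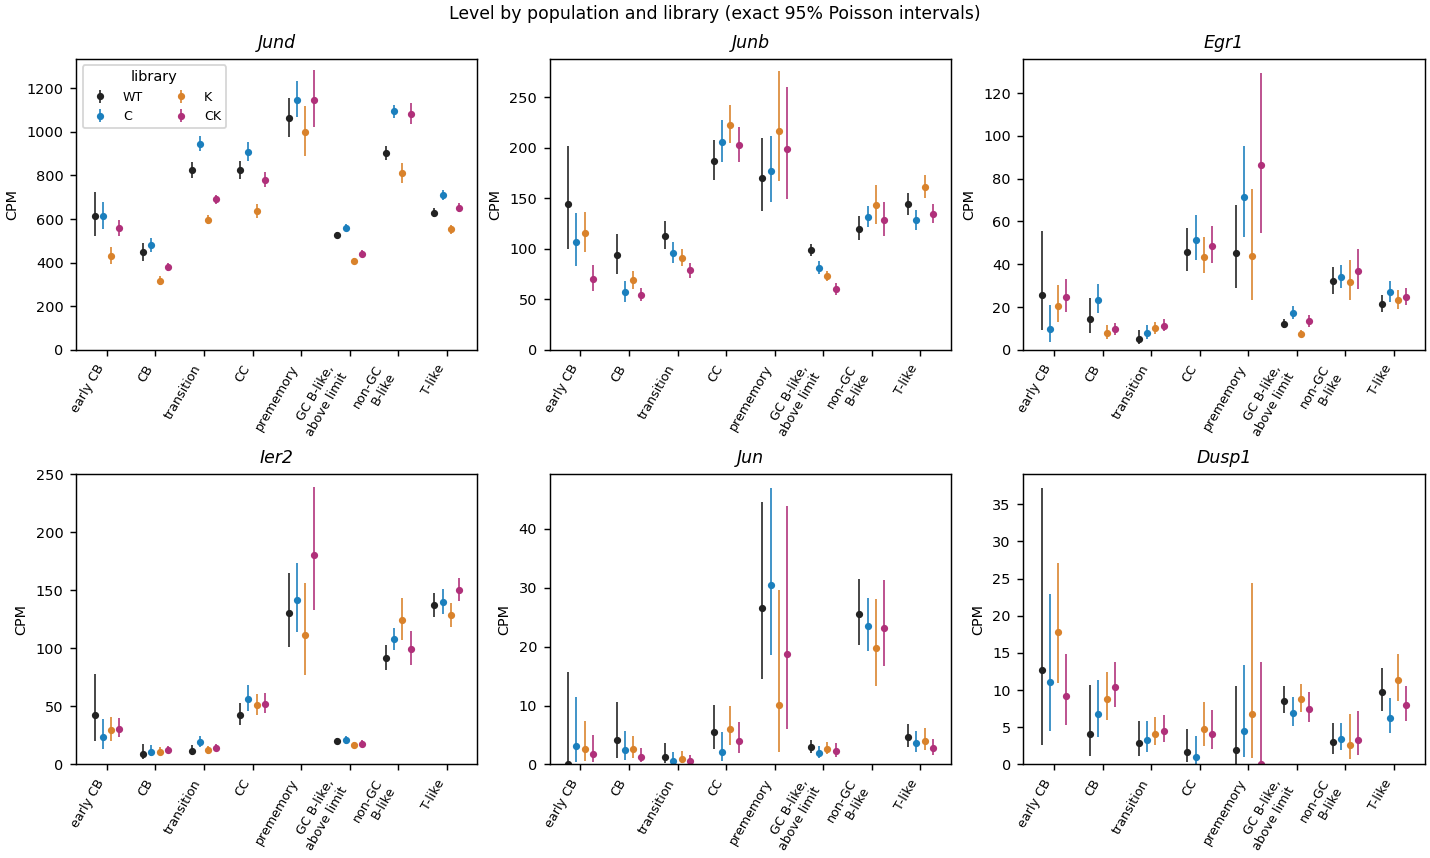
CPM (y axis) of Jund, Junb, Egr1, Ier2, Jun and Dusp1 in 8 populations (x axis), with 1 point per library and exact 95% Poisson intervals. Jund was lowest in CB, while Junb, Egr1 and Ier2 were high in CC and prememory cells relative to CB, and Jun was high in prememory and non-GC B-like cells.

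Among the annotated subtypes and the non-GC B-like and T-like cells, Jun (956 UMIs over all barcodes) had its highest mean levels in non-GC B-like and prememory cells. It was at 25.4, 23.4, 19.7 and 23.2 CPM in non-GC B-like cells and at 26.5, 30.4, 10.1 and 18.8 CPM in prememory cells, the latter on 14, 20, 3 and 5 UMIs. In CB it was at 4.16, 2.41, 2.56 and 1.27 CPM, in CC at 5.47, 2.12, 5.99 and 4.06 CPM, and in T-like cells at 4.59, 3.56, 3.94 and 2.71 CPM. The non-GC B-like range lay above all 3 of these ranges, which overlapped with each other.

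Dusp1 (943 UMIs) had the reverse course. It was at 12.8, 11.1, 17.8 and 9.17 CPM in early CB, 4.16, 6.73, 8.81 and 10.4 CPM in CB (4, 14, 31 and 49 UMIs), and 1.64, 1.06, 4.79 and 4.06 CPM in CC (3, 2, 12 and 11 UMIs). T-like cells held 9.77, 6.28, 11.4 and 7.97 CPM and non-GC B-like cells 3.03, 3.41, 2.63 and 3.31 CPM, without overlap. The ranges of CB and CC over the libraries overlapped, although CC was lower than CB within each library.

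Fos, Fosb, Atf3 and Fosl2 were at or near 0 in the GC B subtypes, the non-GC B-like and the T-like cells, to which the values of these 4 genes refer here. Fos gave 332 UMIs over all barcodes and was at most 6.97 CPM, except for 15.01 CPM in CK prememory cells on 4 UMIs (interval 4.09 to 38.4). In non-GC B-like cells it was at 6.97, 3.196, 0.657 and 3.86 CPM on 23, 15, 1 and 7 UMIs, and in T-like cells at 4.39, 2.72, 2.28 and 4.46 CPM. Fosb gave 64 UMIs and stayed at or under 2.42 CPM outside recycling cells, where CK had 1 UMI, and 8 of its UMIs came from WT non-GC B-like cells. Atf3 gave 52 UMIs and reached 3.12 CPM in WT CB on 3 UMIs. Fosl2 gave 73 UMIs, of which 12, 15, 8 and 9 were in T-like cells (2.39, 3.14, 1.66 and 1.43 CPM). No Fosl2 UMI was counted in CB or CC, and a floor of 3 counts corresponds to 3.12, 1.44, 0.853 and 0.637 CPM in CB and 1.64, 1.59, 1.20 and 1.11 CPM in CC. The exact two-sided 95% intervals of these zeros, as plotted, reach up to 3.83, 1.77, 1.05 and 0.783 CPM in CB.

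**Figure D2:**
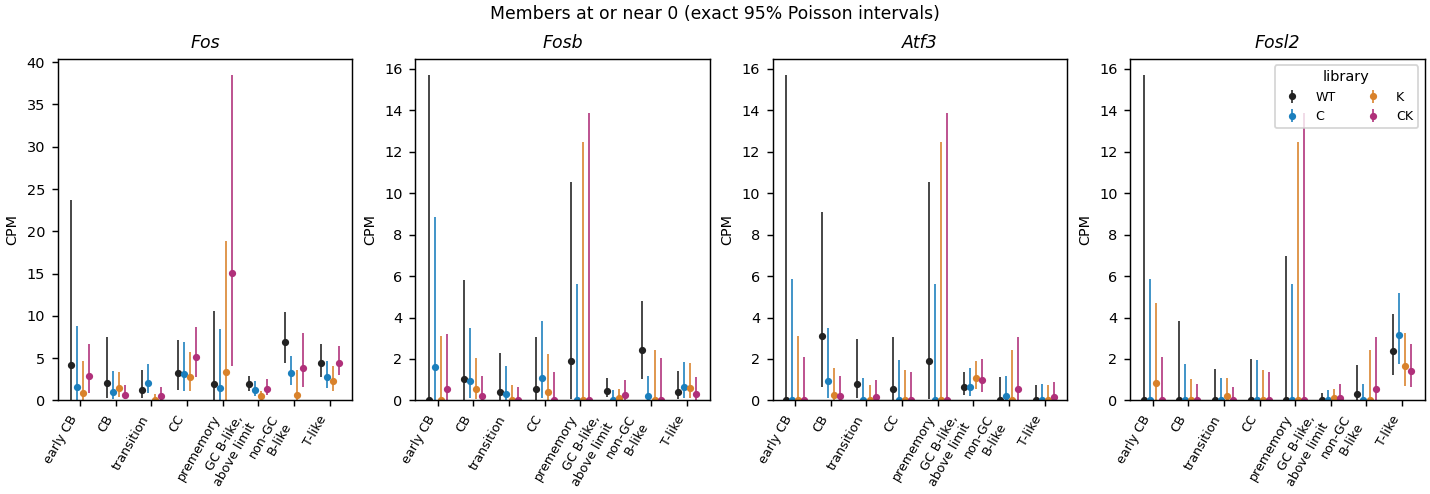
CPM (y axis) of Fos, Fosb, Atf3 and Fosl2 in the same 8 populations (x axis), with 1 point per library and exact 95% Poisson intervals. Most intervals reach 0 or nearly so, and Fosl2 stands above 0 in T-like cells of all 4 libraries.

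Between CC and CB, 4 members had at least 20 UMIs over both populations in each library, and all 4 were 1.5-fold or more higher in CC in all 4 libraries. Over all 7674 genes compared, 5.59% were higher and 9.11% lower by this rule. The ratio of CC to CB was 3.05 for Junb (1.999 to 3.72 over the libraries), 1.95 for Jund (1.84 to 2.06), 3.74 for Egr1 (2.23 to 5.47) and 4.60 for Ier2 (4.19 to 5.09). The median log2 ratio of these members was 1.33, 1.502, 1.95 and 1.98, with a mean of 1.69, against a mean of -0.08 for the median of all genes. The subtype names rest on expression in the same cells, so this is a description of the named cells. The other 6 members did not reach 20 UMIs in each library, among them Dusp1, which was lower in CC than in CB within each library. The filter counts both populations together. Egr1 and Ier2, with 14 and 9 UMIs in WT CB, passed it in WT only through their CC counts. The count of members compared and their median therefore depend on the filter.

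The difference did not appear at the same subtype for the 4 genes. Between transition cells and CB, Jund was 1.88-fold higher (1.82 to 1.97), and 1.06% of genes were higher by the rule of 1.5-fold in all 4 libraries. Junb was 1.40-fold higher on average (1.21 to 1.67), Ier2 1.30-fold (1.10 to 1.76), and Egr1 had a ratio of 0.657 (0.345 to 1.26), so these 3 did not pass the rule. The Jund ranges of transition cells and CC overlapped, whereas those of Junb, Egr1 and Ier2 did not.

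Outside the step from CB to CC, the members differed from each other in direction. From CC to prememory cells, 1 of 4 members compared, Ier2, was 1.5-fold or more higher in all libraries, at 2.76-fold (2.18 to 3.44), where 7.90% of genes were higher. Jund was 1.39-fold, Egr1 1.25-fold and Junb 0.929-fold. From annotated GC B cells to non-GC B-like cells, 2 of 6 members were higher, against 11.3% of genes: Jun at 7.27-fold (4.98 to 12.8) and Ier2 at 3.61-fold (2.82 to 5.20). From non-GC B-like to T-like cells, 1 of 6 was higher (Dusp1, 2.81-fold, 1.84 to 4.34, against 11.2% of genes) and 1 lower (Jun, 0.159-fold, against 10.8% of genes). In non-GC B-like cells Dusp1 had 10 and 16 UMIs in WT and C and 36 over the 4 libraries, so it passed the count filter only through its T-like counts. Jun, with 17, 19 and 17 UMIs in T-like cells of C, K and CK, passed it there only through its non-GC B-like counts. Both calls therefore depend on the filter. When each cell was thinned to 2000 UMIs, the mean log2 ratio of Jun went from 2.86 to 1.94 for non-GC B-like over GC B cells and from -2.65 to -1.96 for T-like over non-GC B-like cells, and that of Dusp1 for the latter comparison from 1.49 to 0.63. The Dusp1 call did not hold there, since the share of thinned C cells with Dusp1 was 0.518% in T-like and 0.877% in non-GC B-like cells.

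**Figure D3:**
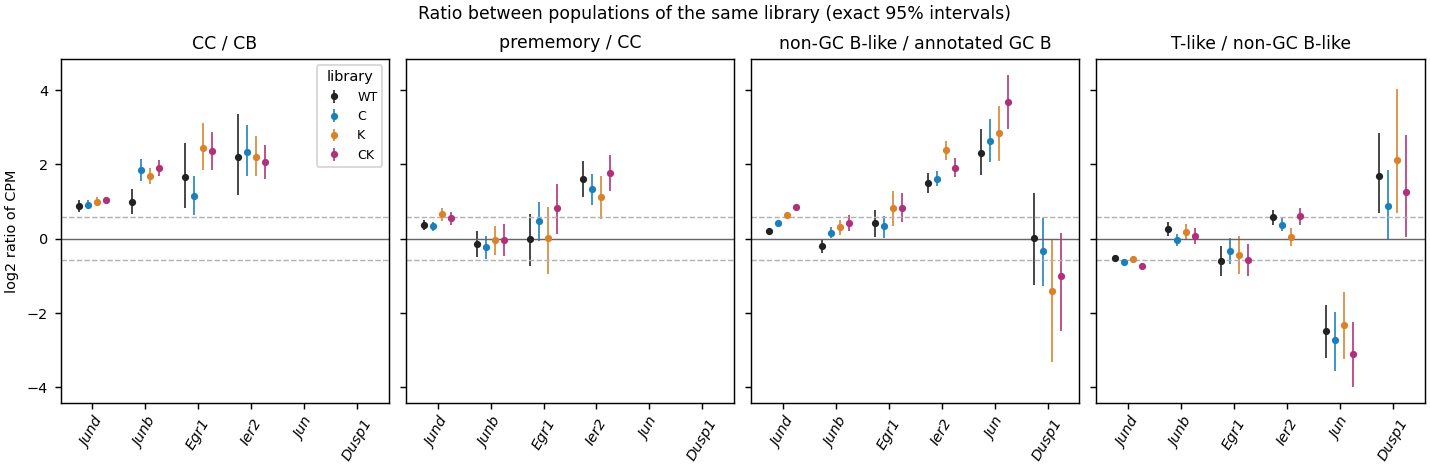
Log2 ratio of CPM (y axis) of each member (x axis) between 2 populations of the same library, with 1 point per library, exact 95% intervals and dashed lines at 1.5-fold; members with too few UMIs have no point. All 16 points of CC over CB lie above the upper dashed line, and Jun has its highest ratios in non-GC B-like over GC B cells and its lowest in T-like over non-GC B-like cells.

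Depth per cell differed between the populations, and the share of cells with a UMI was therefore taken after each cell was thinned to 2000 UMIs, which left out 9 to 30 CB and 12 to 161 CC per library. It left out far more of the shallower cells, namely 274, 1476, 317 and 950 non-GC B-like and 96, 483, 258 and 1578 T-like cells, so that thinned shares, ratios and joint detection there describe the deeper cells. Junb was detected in 11.5%, 8.80%, 11.8% and 9.16% of CB and in 28.1%, 26.0%, 32.3% and 28.6% of CC. Before thinning, these shares were 30.1%, 21.4%, 25.6% and 19.5% of CB and 46.6%, 40.2%, 46.8% and 36.8% of CC. Ier2 was detected in 1.72%, 1.71%, 1.75% and 2.34% of CB and in 8.38%, 10.2%, 7.34% and 9.42% of CC, and Egr1 in 2.30%, 3.18%, 0.954% and 1.83% of CB and in 5.68%, 8.32%, 6.48% and 7.74% of CC. For Junb and Ier2, the exact Clopper-Pearson intervals of CB and CC did not overlap in any library. For Egr1 they overlapped in the WT library (0.630% to 5.78% of CB and 3.55% to 8.55% of CC) and not in the other 3. Jund was detected in 54.0%, 59.2%, 44.0% and 49.4% of CB and in 76.2%, 76.5%, 65.2% and 74.1% of CC. T-like cells had Ier2 in 22.5%, 21.7%, 21.1% and 24.5% and Egr1 in 3.55%, 3.77%, 3.53% and 3.63% of cells, so that the 4 libraries were close to each other there. Non-GC B-like cells had Egr1 in 3.41%, 3.38%, 5.21% and 3.66% of cells, which was above T-like cells in K and CK only. No cell type in these data is known to lack these genes, so the share that free RNA alone would give was not measured.

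The deposited pseudotime rank gave another ordering of the annotated cells, which was cut into 5 equal bins within each library. Like the subtype names, the rank rests on expression in the same cells, so the bins are a description and no independent check. CB made up 58.6% of the first bin on average. Ier2 was at 17.3, 15.9, 18.1 and 18.3 CPM in the first bin and at 83.0, 89.5, 54.5 and 61.4 CPM in the last, with its largest step between the last 2 bins in each library. Jund went from 602, 559, 375 and 421 CPM to 977, 1072, 708 and 847 CPM. Junb went from 113, 76.3, 87.0 and 53.7 CPM to 146, 182, 199 and 181 CPM, and in WT its highest value, 185 CPM, was in the fourth bin. Egr1 was lowest in the second bin in WT, C and K (9.77, 14.8 and 11.8 CPM) and was at 34.9, 53.5, 34.4 and 42.9 CPM in the last. Dusp1 went the other way, from 4.66, 9.23, 13.6 and 12.9 CPM to 1.09, 4.39, 4.01 and 2.65 CPM. The last bin held CC and prememory cells in different proportions, with 47.8% and 46.3% prememory cells in WT and C and 16.3% and 12.4% in K and CK, and the part of this difference in the last values was not tested.

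**Figure D4:**
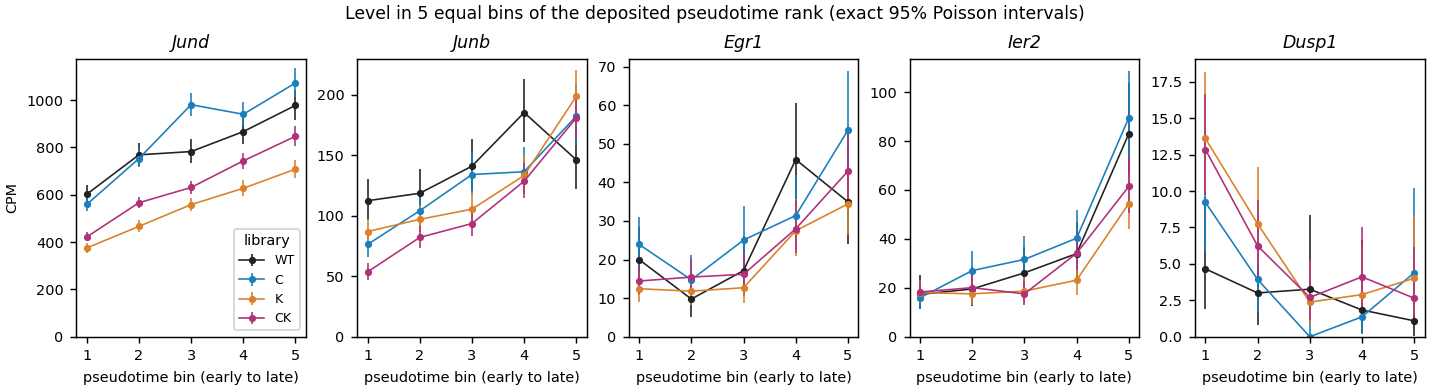
CPM (y axis) of Jund, Junb, Egr1, Ier2 and Dusp1 in 5 equal bins of the deposited pseudotime rank (x axis), with 1 line per library and exact 95% Poisson intervals. Ier2 stays between 15.9 and 40.3 CPM up to the fourth bin and is between 54.5 and 89.5 CPM in the fifth, whereas Dusp1 is highest in the first bin of each library.

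Within a population, Egr1 and Ier2 were found in the same cells more often than the product of their shares. In CC, 50 cells had a UMI of both after thinning, where 14.3 would match the product, a ratio of 3.50 (2.70 to 3.98 over the libraries). The ratio was 3.51 in non-GC B-like cells (2.63 to 5.46) and 1.93 in T-like cells (1.76 to 2.22). Junb with Egr1 had ratios of 1.68, 2.85 and 2.41 in CC, non-GC B-like and T-like cells, and Junb with Ier2 had 1.42, 1.76 and 1.23. For Jund, which was detected in 65.2% to 76.5% of thinned CC, the ratio has little room above 1, and it was 1.04 with Junb in CC and 1.23 in non-GC B-like cells. With Scrublet calls removed, an alternative chosen after seeing the data, Egr1 with Ier2 kept ratios of 3.51, 3.50 and 1.92 in the 3 populations.

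CC with a UMI of Myc, a factor known to mark positively selected light zone cells, numbered 22, 22, 49 and 53. Junb was at 431, 421, 550.2 and 404 CPM in them and at 169, 195, 188 and 186 CPM in the other CC, with no overlap of the Poisson intervals in any library. Ier2 was at 203, 75.6, 143 and 126 CPM against 31.1, 55.3, 41.5 and 46.3 CPM, and Egr1 at 244, 86.4, 92.4 and 97.3 CPM against 31.7, 49.7, 38.4 and 44.7 CPM. For both genes the intervals did not overlap in WT, K and CK, and overlapped in C, where 7 and 8 UMIs were counted. Jund intervals overlapped in C and CK. Cells with a Myc UMI were deeper, with median UMIs of 5935, 4008, 4820.0 and 3891 against 4701, 3472, 3785 and 2632, and the part of depth in this difference was not tested.

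The 3 genotype comparisons share the WT library, so any peculiarity of it enters all of them. In CB, 4, 5 and 5 members could be compared in C, K and CK. Lower by 1.5-fold or more than WT were 1 in C (Junb), 1 in K (Egr1) and 2 in CK (Junb and Egr1), where 8.18%, 23.2% and 12.0% of all genes were lower. Higher were 1 in C (Egr1), 1 in K (Dusp1) and 1 in CK (Dusp1), where 8.79%, 7.45% and 11.5% of genes were higher. In CC, 4, 5 and 6 members could be compared and none was lower, where 5.82%, 22.6% and 5.66% of genes were. Higher in CC were none in C, none in K and 1 in CK, which was Fos on 14 and 6 UMIs, where 5.71%, 4.60% and 7.17% of genes were higher.

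Junb in CB, at the levels given above, rested on 90, 119, 243 and 256 UMIs. Its log2 ratio over WT was -0.71 in C (-1.12 to -0.30), -0.44 in K (-0.79 to -0.07) and -0.78 in CK (-1.14 to -0.42). In transition cells the ratios were -0.24, -0.32 and -0.52, and in unannotated GC B-like cells with 2500 genes or more, which rest on 1041, 609, 744 and 431 UMIs, they were -0.28, -0.43 and -0.71. In CC they were 0.14, 0.25 and 0.11, in non-GC B-like cells 0.14, 0.26 and 0.10, and in T-like cells -0.17, 0.17 and -0.09. The log2 ratio of CC to CB was larger than in WT by 0.85 in C (0.39 to 1.31), 0.69 in K (0.27 to 1.09) and 0.90 in CK (0.48 to 1.30). Relative to T-like cells of the same libraries, the ratios in CB were -0.54 (-0.98 to -0.10), -0.60 (-0.99 to -0.21) and -0.69 (-1.07 to -0.30). When each cell was thinned to 2000 UMIs they became -0.47, 0.11 and -0.35, and when CB with 2500 genes or more were added they became -0.32, -0.35 and -0.57, so that no library passed 1.5-fold and K changed sign under thinning. The shares of thinned CB with Junb, given above, overlapped in their intervals.

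Jund was below WT in the K library in each subtype from early CB to CC. Its log2 ratio of K over WT was -0.51 in early CB, -0.49 in CB (-0.66 to -0.33), -0.47 in transition cells and -0.38 in CC, and -0.19 in T-like and -0.15 in non-GC B-like cells. Relative to T-like cells, it was -0.31 in CB (-0.49 to -0.13) and -0.19 in CC (-0.32 to -0.06). The CK library was close to this, at -0.29 in CB (-0.46 to -0.12) and -0.13 in CC (-0.25 to -0.01) relative to T-like cells, and in CB relative to non-GC B-like cells CK was at -0.50 and K at -0.34. In C and CK the log2 ratios in CB were 0.10 and -0.24, and in CC 0.14 and -0.08. None of these reached 1.5-fold, and the ratio of CC to CB for Jund differed from that of WT by 0.04, 0.12 and 0.16, with intervals that included 0.

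Egr1 in CB had log2 ratios over WT of 0.67 (-0.22 to 1.64), -0.87 (-1.84 to 0.17) and -0.61 (-1.50 to 0.37), on 14 UMIs in WT, and the intervals included 0. Those of Dusp1 in K and CK were 1.08 (-0.42 to 3.05) and 1.32 (-0.12 to 3.26), on 4 UMIs in WT. Ier2 in CB had 0.24, 0.25 and 0.42, and in CC 0.40, 0.26 and 0.30, with intervals that included 0 in both. A difference between genotypes was therefore not detectable at this depth for these genes in CB. Egr1 was also compared in unannotated GC B-like cells with 2500 genes or more, on 127 UMIs in WT. It was at 0.51 in C (0.14 to 0.87), -0.69 in K (-1.12 to -0.27) and 0.15 in CK (-0.24 to 0.55). Dusp1, on 91 UMIs in WT, had -0.31, 0.03 and -0.19 in these cells, and Ier2 had 0.07, -0.26 and -0.16. The intervals of Dusp1 and Ier2 included 0 there. In transition cells, Egr1 was higher than in WT in K, at 0.92 (0.02 to 1.93), and in CK, at 1.08 (0.21 to 2.07), on 13 UMIs in WT. These are opposite in sign to the values in CB. Ier2 in transition cells was higher in C, at 0.72 (0.07 to 1.40).

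T-like cells, in which Cγ1-cre is not known to act, and non-GC B-like cells also differed between the libraries. In non-GC B-like cells Fos was lower than WT by 1.5-fold or more in all 3 mutant libraries, at log2 ratios of -1.12 (-2.17 to -0.12), -3.41 (-8.77 to -0.78) and -0.85 (-2.32 to 0.42), on 23 UMIs in WT and 15, 1 and 7 in the others, where 4.69%, 23.7% and 6.57% of genes were lower. In T-like cells, 2 members were lower in C (Fos and Dusp1), 1 in K (Fos) and 2 in CK (Jun and Fosl2), where 5.46%, 23.3% and 4.56% of genes were. The intervals of all 5 of these T-like ratios, and of Fos in CK non-GC B-like cells, included 0. The median log2 ratio of the members over WT was 0.14, -0.09 and 0.11 in non-GC B-like and -0.07, -0.14 and -0.03 in T-like cells, against 0.17, -0.44 and -0.24 in CB and 0.15, 0.13 and 0.10 in CC.

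**Figure D5:**
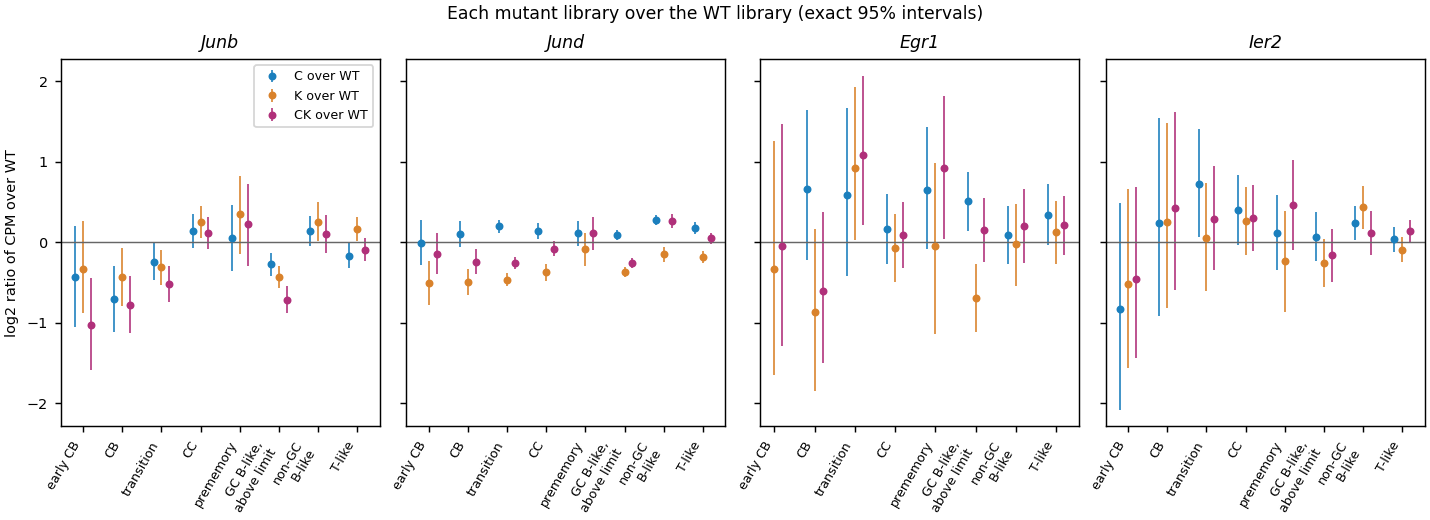
Log2 ratio of CPM over the WT library (y axis) of Junb, Jund, Egr1 and Ier2 in 8 populations (x axis), with 1 point per mutant library and exact 95% intervals. Junb lies below 0 in CB in all 3 libraries (-0.71, -0.44 and -0.78) and slightly above it in CC, and Jund lies below 0 in K in each population.

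The other genes of the pathway were described from 4 lists. Of 18 other AP-1 and related bZIP genes, 10 could be compared between CC and CB, and 1 was higher in all libraries, where 5.59% of all genes were higher and 9.11% lower. This was Batf, a partner of Jun proteins in lymphocytes, at 37.0 CPM in CC and 11.5 CPM in CB (3.14-fold). Of 27 other immediate early and early response genes, 19 could be compared, 9 were higher and none was lower. Among these, Myc was 5.01-fold higher, Klf2, a factor of quiescence and trafficking, 3.14-fold, Nfkbia, an NF-κB inhibitor and target, 2.73-fold, and Cd69, an early activation marker, 2.70-fold. Egr3, a relative of Egr1, gave 30, 26, 56 and 60 UMIs in CC and 2, 0, 2 and 2 in CB. It therefore passed the count filter only through its CC counts. Myc, at 4.73 CPM in CB on average, and Batf also had few counts in CB, where the WT sum held 962236 UMIs. The numbers of genes compared and called therefore depend on the filter. Of 13 upstream kinases and ternary complex factors, 12 could be compared and 1 was higher (Elk3, 1.95-fold).

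In non-GC B-like over annotated GC B cells, 12 of 23 other immediate early genes compared were higher and 2 lower, where 11.3% of all genes were higher and 13.0% lower. Klf2 was 14.3-fold higher, Rhob 4.58-fold and Socs3 4.32-fold, and Egr3 and Btg1 were each 3.16-fold higher. Gadd45b, a growth arrest and stress gene, was at 0.206-fold and Klf10 at 0.336-fold. Socs3 and Rhob were at 1.30 and 2.31 CPM in annotated GC B cells, and Klf10 at 3.68 CPM in non-GC B-like cells. The calls of these genes therefore also depend on the count filter. Of 11 other bZIP genes 1 was higher (Atf6, 2.36-fold), and of 13 kinases and ternary complex factors 2 were (Elk4, 2.06-fold, and Mef2d, 1.93-fold). The median log2 ratio of the genes compared was 0.87 for the immediate early list and 0.17 for the bZIP list and for the kinase list. For the heat shock list it was -0.78, where 5 of 8 genes compared were lower, against 13.0% of all genes.

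Heat shock genes, which are known to respond to stress during cell handling, did not follow the members between CC and CB. Of 8 compared in a list of 10, 3 were lower in CC (Hsp90aa1 0.403-fold, Dnajb1 0.421-fold and Dnaja1 0.619-fold) and 1 was higher (Hspe1, 1.78-fold). The sum of the list was 4761 to 5593 CPM in CB and 4271 to 4953 CPM in CC. It was 7376 to 8724 CPM in prememory and 3262 to 3582 CPM in non-GC B-like cells, both of which had more Ier2 and Jun than CC. Hspa8 and Hsp90ab1 made up most of this sum. Without them it was 1416 to 1631 CPM in CB and 1017 to 1191 CPM in CC, without overlap. It was then 2096 to 2443 CPM in prememory and 830 to 864 CPM in non-GC B-like cells. Hspa1a and Hspa1b, the most inducible of the list, were at or under 1.04 CPM in each of these populations. The part of cell handling in the levels of the members was not tested.

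The genes whose levels ran most like the mean log2 CPM of the members, over 31 sums of population and library and among 2840 genes with at least 50 CPM on average, were Nfkbia (Pearson r 0.94), Ms4a4c (0.91), Nfkb1 (0.90), Tapbp (0.90), Ccnd2, Jarid2, Mndal and Foxn3 (0.89 each), and Il2rg and Dock10 (0.88 each). Nfkbia was also in the list of other early response genes. Among the members, Egr1 and Ier2 had r 0.78, Junb and Egr1 0.75, Junb and Ier2 0.75 and Junb and Jund 0.70, and Dusp1 had negative values with each of the other 5, from -0.71 with Jund to -0.30 with Ier2. The sums share libraries and totals, and these values describe the 31 sums.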

How the data were processed

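The authors sorted B220+IgD- splenocytes, made droplet libraries of 3′ ends, counted UMIs with Cell Ranger 3.0 (the matrix header gives 3.0.2) and annotated GC B cells in Seurat 4.0 by label transfer; the build is mm10 per the labels. The deposited matrices hold raw UMI counts, and the deposited cell table holds, for each cell, its UMI and gene counts, its mitochondrial UMIs as a percent, its subtype name and its pseudotime rank (slingshot), used as a score. The ranks were made per pair of libraries, so bins were taken within a library. All 9804 annotated cells matched the matrices.

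Members and gene lists were chosen with earlier results of these data known. Unannotated cells below 8% mitochondrial UMIs were clustered (scanpy 1.11.5, igraph 0.11.9, leidenalg 0.10.2, scikit-learn 1.9.0; 2000 variable genes, 30 components, 15 neighbours). Names needed at least 3 markers, and 50% of a list, at 1/4 of their highest cluster level or more. Unnamed clusters held 15.8% to 17.3% of clustered barcodes. Doublets (Scrublet, 3.80% to 5.80%) were kept in the main values.

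Counts were summed per population and library and scaled to CPM (numpy 2.4.6, scipy 1.17.1, pandas 2.3.3). Intervals were exact Poisson for sums, exact conditional binomial for ratios and Clopper-Pearson for shares, at 95%. Genes with at least 20 UMIs over both sums were compared, in each library for comparisons between populations, and a 0 was set at 3 counts. A gene was called at 1.5-fold, in all 4 libraries between populations. Levels count 3′ UMIs and were not compared between genes. Named genes were the members, at most the 5 highest and 5 lowest called genes of each other list for CC over CB and for non-GC B-like over GC B cells, and the 10 genes most like the members over populations with at least 50 cells (log2 of CPM plus 1). The steps were checked on simulated counts. Coordinates are from GENCODE vM21 and promoters from RefSeq GRCm38.p6, in which rows for Ier2 and Egr1 were not used. Alternatives covered scaling, genes in the total, doublets, thinning, the mitochondrial limit, marker gates, the count filter, the summary over members, cells above the gene limit and reference cells.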

Additional observations from a re-analysis of the deposited data

How the results depend on the processing

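Of 196 values that answer a comparison under an alternative setting, 171 stayed within the spread of the main value and 25 moved. For single members these numbers were 374 and 107. Of the single log2 ratios, 67 changed sign under an alternative and 2 of these were past 1.5-fold in the main setting: the log2 ratio of Egr1 for C over WT in CB (0.67) was -0.50 when cells were thinned to 2000 UMIs and -0.045 below 5% mitochondrial UMIs. The median of the members for CK over WT in CB (-0.24) was -0.78 without the filter on low counts and -0.66 with non-GC B-like cells as the reference. Among non-GC B-like cells it was 0.45 for C (0.14) below 5% mitochondrial UMIs, -0.54 for K (-0.09) as a mean over members and -0.44 for CK (0.11) after thinning, and in T-like cells -0.33 for K (-0.14) below 5% mitochondrial UMIs. Between populations, the median for CC over CB (1.69) was 1.22 without the filter and 1.11 for summed CPM, and that for prememory over CC (0.40) was 0.66 without the filter. For non-GC B-like over GC B cells (0.57) it was 0.85 after adding those above the gene limit and 0.89 as a mean. For T-like over non-GC B-like cells (-0.19) it was 0.025 after thinning, 0.30 below 5% mitochondrial UMIs, 0.10 with the gate on markers, -0.060 without immunoglobulin, mitochondrial and ribosomal protein genes, -0.29 as a mean and -0.40 for summed CPM, so its sign was not stable. Jund for CK over WT in non-GC B-like cells (0.26) was -0.44 after thinning, and Ier2 for K over WT in CC (0.26) was -0.20. The ratio of shares of CC to CB was 1.79 for Junb (2.82), 1.10 for Jund (1.42) and 2.72 for Ier2 (4.76) with all UMIs, and 1.69 for Jund with thinning to 1000 UMIs. That thinning gave joint detection ratios of 4.86 for Egr1 with Ier2 in CC (3.50), 2.71 for the same genes in T-like cells (1.93), 1.78 for Junb with Ier2 in CC (1.42) and 1.23 for Junb with Jund in T-like cells (1.09). By Spearman correlation, 7 of the 10 most similar genes were among the first 10. The cause of these changes was not tested.

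With 1 mouse per genotype, genotype, mouse and library cannot be told apart, and the low totals of Fos, Fosb, Atf3 and Fosl2 limit what can be detected for them. No paired analysis was possible because each genotype was 1 mouse with 1 library; the comparisons between populations were made within each library. Alternatives on doublets in joint detection and on cells at or above 8% mitochondrial UMIs were chosen after seeing the data.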

Other observations

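Smaller cell classes of the sort differed in these genes. Plasma-like cells (44, 54, 67 and 72 cells) had Junb at 26.4, 19.7, 11.9 and 38.3 CPM and Ier2 at 7.34, 26.2, 16.3 and 23.2 CPM, both below the levels in CC, while their Jund was at 622, 731, 566 and 783 CPM. The total behind CPM includes immunoglobulin UMIs, and their part in the plasma-like values was not tested. Natural killer-like cells (56 to 96 per library) had Ier2 at 106 to 125 CPM on 21 to 29 UMIs, with each value below that of T-like cells. Its exact Poisson interval included the T-like value of the same library in each case (66.6 to 161 CPM in WT). A difference from T-like cells was therefore not detectable for Ier2. Junb in natural killer-like cells, at 129 to 184 CPM, overlapped with the range of T-like cells. Plasmacytoid dendritic-like cells (35 to 75 per library) had Jund at 338, 278, 241 and 279 CPM, below each annotated GC B subtype of the same library, and Jun at 27.3, 19.2, 27.8 and 26.7 CPM on 4 to 7 UMIs. Myeloid-like cells (15 to 32 per library) had Junb at 382, 208, 224 and 355 CPM on 19 to 34 UMIs, and Jun at 150.3 CPM in WT on 13 UMIs against 19.5 to 22.0 CPM on 2 UMIs in each of the others. The exact Poisson interval of the WT value ran from 80.1 to 257 CPM. The members near 0 elsewhere were also counted in these classes, on 7 UMIs of Fos in WT plasma-like cells (10.3 CPM, 4.13 to 21.2), on 3, 3, 0 and 2 UMIs of Fosl2 in natural killer-like cells, and on at most 2 UMIs in any myeloid-like library.

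Recycling cells, an annotated subtype with 8, 10, 15 and 49 cells, had Egr1 at 87.1, 177, 9.04 and 38.6 CPM on 5, 11, 1 and 11 UMIs, and their heat shock sum, at 9034 to 10977 CPM, was above that of each other annotated subtype.

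Cells with 8% or more mitochondrial UMIs, which the deposited annotation leaves out, were compared with cells below that share among T cells gated on markers. Junb was at 261 CPM on 43 UMIs against 161 CPM in K, a log2 ratio of 0.70 (0.21 to 1.16), and Jund had a log2 ratio of 0.54 (0.28 to 0.79) there. For Junb in the other 3 libraries and for Jund in WT, C and CK the intervals included 0. Ier2 was lower in such cells in C, at a log2 ratio of -0.98 (-2.12 to -0.04), and its intervals included 0 in the other libraries.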
